A study of Mus musculus with 3 samples.

Results

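Chemokine receptors that steer lymphocytes into and through lymphoid organs were measured in B cell lymphomas of pBIC2 mice. The 6 members, Cxcr5, Ccr7, Cxcr4, Cxcr3, Ccr6 and Ccr9, were chosen by name from 37646 listed genes, and each matched 1 gene. The lymphomas arose on a C57BL/6 background in mice carrying p53F/F and Blimp1F/F (floxed alleles of the tumour suppressor p53 and of Blimp1, a driver of plasma cell differentiation). Every library also shared the IKK2castopF/stopF allele, an active form of the NF-κB kinase IKK2 that Cre switches on, Cg1Cre/+, in which the immunoglobulin Cγ1 locus drives Cre in B cells of the germinal centre, and the Eµ-hBCL2tg/+ transgene, which expresses human BCL2 from a B cell enhancer. Spleens were taken from moribund animals, and live, reporter-positive B220+GFP+ cells were sorted. The 3 libraries, called tumours 1, 2 and 3, form a single group, with no age given and with no statement that they came from separate animals. The comparison with normal germinal centre B cells that the study describes was not analysed here. The values are therefore levels and their spread between tumours, without a test of a difference between groups, and a contrast between 2 tumours compares 2 libraries.

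Chemokine receptors are G protein-coupled receptors that signal through Gαi proteins and move a cell up a gradient of ligand. CXCR5 follows CXCL13 into B cell follicles, CCR7 follows CCL19 and CCL21 towards the T cell zone, and the balance of the pair places an activated B cell at the border of both. CXCR4 binds CXCL12 of bone marrow stroma and of the germinal centre dark zone, CXCR3 binds the interferon-induced chemokines CXCL9, CXCL10 and CXCL11, CCR6 binds CCL20 at mucosal surfaces, and CCR9 binds CCL25 of thymus and small intestine.

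Promoters are shown for Cxcr4, an abundant receptor, and for Cxcr3 and Ccr6, the receptors that differed most between tumours. Each runs from 250 bases before to 50 bases after a RefSeq transcription start in GRCm38.p6, the assembly that mm10 denotes, and is written 5′ to 3′ on the strand of the gene. RefSeq promoters matched 4 of the 6 genes, these and Ccr9, and not Cxcr5 and Ccr7. Capitals mark matches, on either strand, to a κB motif (GGNNTTNCC), the octamer (ATGCAAAT), an NRF1 motif (GCATGCGC), a TATA box (TATAAA) or a T-box motif (AGGTGTGA). These motifs were chosen after the sequences had been seen.
Cxcr4, chr1:128592250-128592549, minus strand: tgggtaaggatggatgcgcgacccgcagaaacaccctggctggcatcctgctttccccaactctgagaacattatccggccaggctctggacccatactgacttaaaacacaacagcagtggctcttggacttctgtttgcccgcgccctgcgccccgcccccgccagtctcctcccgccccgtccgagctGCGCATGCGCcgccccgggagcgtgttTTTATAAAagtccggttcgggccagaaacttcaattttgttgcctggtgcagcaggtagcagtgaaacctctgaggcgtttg
Cxcr3, chrX:101734098-101734397, minus strand: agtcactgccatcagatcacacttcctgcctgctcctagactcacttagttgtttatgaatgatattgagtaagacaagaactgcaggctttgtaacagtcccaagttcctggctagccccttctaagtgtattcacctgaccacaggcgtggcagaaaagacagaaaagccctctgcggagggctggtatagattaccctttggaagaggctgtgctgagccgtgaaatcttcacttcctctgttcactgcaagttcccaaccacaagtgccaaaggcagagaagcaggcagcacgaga
Ccr6 first start, chr17:8235793-8236092, plus strand: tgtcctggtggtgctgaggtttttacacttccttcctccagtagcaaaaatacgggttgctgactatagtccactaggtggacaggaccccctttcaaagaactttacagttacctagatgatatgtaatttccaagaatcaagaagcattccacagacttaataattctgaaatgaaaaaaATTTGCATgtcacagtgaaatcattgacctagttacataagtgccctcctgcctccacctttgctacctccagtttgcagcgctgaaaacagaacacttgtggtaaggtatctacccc
Ccr6 second start, chr17:8242276-8242575, plus strand: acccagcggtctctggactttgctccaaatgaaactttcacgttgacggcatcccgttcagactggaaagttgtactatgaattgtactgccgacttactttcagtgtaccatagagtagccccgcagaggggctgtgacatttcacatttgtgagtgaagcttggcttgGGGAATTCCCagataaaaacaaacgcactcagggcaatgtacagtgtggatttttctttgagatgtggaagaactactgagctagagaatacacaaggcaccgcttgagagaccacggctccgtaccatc

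The Cxcr4 promoter held an NRF1 motif and a TATA box, each with overlapping matches on both strands, and 20 CpG dinucleotides against a median of 7 over 32851 promoters of the same length, of which 26.5% had at least as many. The NRF1 motif was found in 2.71% and the TATA box in 13.6% of those promoters. The first Ccr6 start had an octamer (1.74% of promoters) and the second a κB match on both strands (16% of promoters). The Cxcr3 sequence held none of the 5 motifs, the T-box motif (1.28% of promoters) included. A match describes letters only and is no evidence that a factor binds.

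Cxcr5, Ccr7 and Cxcr4 were abundant in every lymphoma, whereas Cxcr3 and Ccr6 were high in tumour 3 and scarce in tumour 1, and Ccr9 was low throughout. Levels are CPM (gene counts scaled to a common library size with TMM factors), and ranges are mean ± SD over n = 3 tumours. At least 10 CPM in every tumour was reached by 3 of the 6 receptors, against 30.3% of the 25463 genes with a count. All 6 had a mean of at least 1 CPM, which Cxcr3 passed through tumour 3 alone. The sorted cells carried the B cell identity of their label, with Ms4a1 (CD20) at 916 to 2590 CPM and Pax5 at 960.1 to 1336 CPM, and Ptprc (which encodes CD45, whose B220 form was sorted) at 408, 718 and 1346 CPM in tumours 1, 2 and 3. The libraries held 15576975 to 17014022 counts. Reads were not marked by molecular identifiers, so the intervals given here cover counting error only. In RNA of bulk sorted cells, fewer cells of a type and less RNA per cell cannot be told apart.

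**Figure D1:**
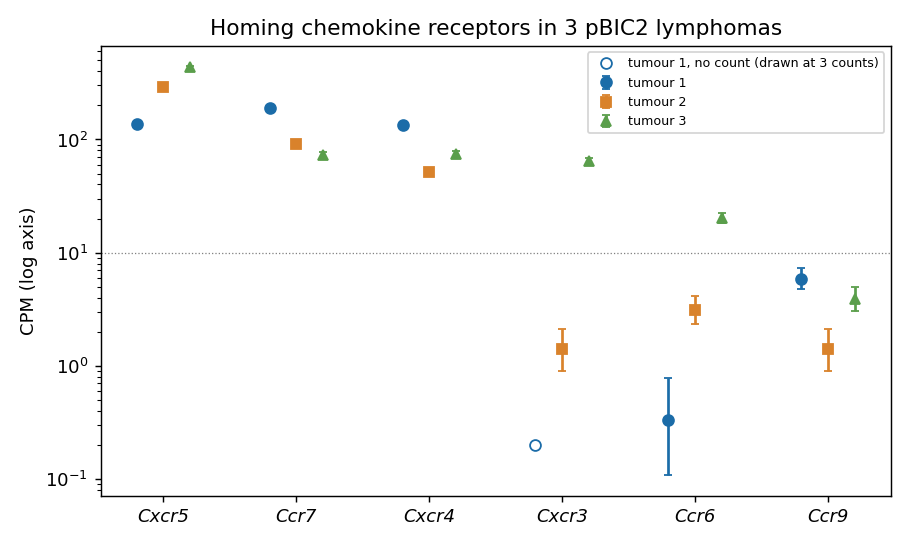
CPM of each receptor (log axis) in tumours 1, 2 and 3, with exact 95% Poisson intervals of the count as bars, often smaller than the symbol. The open circle is a count of 0 drawn at the level of 3 counts, and the dotted line is at 10 CPM. Cxcr5, Ccr7 and Cxcr4 lie above the line in all tumours, and Cxcr3 and Ccr6 cross it in tumour 3.

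Cxcr5 (ENSMUSG00000047880.15), the follicular homing receptor, lies on chromosome 9 at 44511787 to 44561877 (mm10, GENCODE M21, minus strand) and was the most abundant member by mean. Tumours 1, 2 and 3 had 136, 290.3 and 433 CPM (286 ± 148 CPM, SD, n = 3), above 97.7% of genes with a count. Tumour 1 was the lowest and tumour 3 the highest, 3.18-fold apart (95% counting interval 3.03 to 3.34). Bcl9l, a gene on the opposite strand, shares 110 of its 3332 exon bases, so reads there may belong to either gene where strand was not used.

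Ccr7 (ENSMUSG00000037944.8), the receptor for the T cell zone, lies on chromosome 11 at 99144196 to 99155077 (minus strand). Its levels were 190.5, 91.8 and 73.0 CPM in tumours 1, 2 and 3 (118 ± 63.1 CPM). Tumour 1 stood highest and the other tumours lay close together, with tumour 1 at 2.61-fold the level of tumour 3 (2.44 to 2.79) and tumour 2 at 1.26-fold (1.17 to 1.36).

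Cxcr4 (ENSMUSG00000045382.6), the CXCL12 receptor, lies on chromosome 1 at 128588199 to 128592293 (minus strand). Its levels in the same order were 134, 51.6 and 74.3 CPM (86.6 ± 42.5 CPM). Again tumour 1 was highest, at 2.60-fold the level of tumour 2 (2.40 to 2.82).

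Cxcr3 (ENSMUSG00000050232.6), a receptor typical of type 1 effector T cells that B cells of type 1 responses also express, lies on chromosome X at 101731535 to 101734269 (minus strand). It had 0, 23 and 1144 counts, or 0, 1.41 and 64.5 CPM, in tumours 1, 2 and 3. Nearly all Cxcr3 counts were therefore in tumour 3, which was 45.7-fold above tumour 2 (30.3 to 72.4) and at least 324-fold above tumour 1, where 3 counts (0.199 CPM) served as the floor. In tumour 1 the upper 95% Poisson limit was 0.244 CPM.

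Ccr6 (ENSMUSG00000040899.14), which B cells use to reach mucosal lymphoid tissue, lies on chromosome 17 at 8236043 to 8257141 (plus strand). It had 5, 51 and 358 counts in tumours 1, 2 and 3, which are 0.331, 3.13 and 20.2 CPM. The 3 counting intervals did not overlap, and tumour 3 was 60.9-fold above tumour 1 (25.9 to 188.7) and 6.45-fold above tumour 2 (4.80 to 8.83).

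Ccr9 (ENSMUSG00000029530.16), the gut and thymus homing receptor, lies on chromosome 9 at 123678439 to 123784330 (plus strand) and was the least abundant member. It had 5.90, 1.41 and 3.89 CPM in tumours 1, 2 and 3 (3.73 ± 2.25 CPM). Tumour 1 was the highest, 4.18-fold above tumour 2 (2.62 to 6.94). Of 10260 exon bases in its gene model, 21.5% are shared with other annotated genes, AC165425.1, Gm17200 and Slc6a20a, so its count is less certain than the others.

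Per exon length, the order of the mean levels was Cxcr5, Ccr7, Cxcr4, Cxcr3, Ccr6 and Ccr9. RPKM (CPM divided by the GENCODE exon length in kilobases) averaged 85.97 ± 44.5 for Cxcr5, 59.9 ± 31.9 for Ccr7 and 47.9 ± 23.5 for Cxcr4. They averaged 12.7 ± 21.3 for Cxcr3, 3.40 ± 4.63 for Ccr6 and 0.364 ± 0.219 for Ccr9. The ranges over the tumours overlapped for every pair of neighbours in this order, so no neighbours differed beyond their spread between tumours. Within each tumour, Cxcr4 was above Cxcr3, at 74.1 against 0, 28.5 against 0.815 and 41.1 against 37.2 RPKM. The lowest Cxcr4 level (28.5 RPKM, tumour 2) was still above the highest Ccr6 level (8.70 RPKM, tumour 3). The means of Cxcr3 and Ccr6 rest on tumour 3: they were 22.0 and 7.88 CPM, and 0.688 and 1.69 CPM without it.

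The order changed from tumour to tumour. In tumour 1 Ccr7 led with 96.3 RPKM, followed by Cxcr4 with 74.1 RPKM and Cxcr5 with 40.9 RPKM. In tumour 2 Cxcr5 led with 87.1 RPKM before Ccr7 with 46.4 RPKM and Cxcr4 with 28.5 RPKM. In tumour 3 Cxcr5 led with 130 RPKM, and Cxcr4 (41.1 RPKM), Cxcr3 (37.2 RPKM) and Ccr7 (36.9 RPKM) were nearly level. The follicle receptor was thus below the T zone receptor in tumour 1 and above it in the other tumours. The RPKM ratio of Cxcr5 to Ccr7, which needs no scaling between libraries, was 0.425, 1.88 and 3.52 in tumours 1, 2 and 3. That of Cxcr5 to Cxcr4 was 0.552, 3.06 and 3.16, and that of Ccr7 to Cxcr4 kept within 0.897 to 1.63.

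As shares of the summed RPKM of the 6 receptors (212, 164 and 254 RPKM in tumours 1, 2 and 3), Ccr7 held 45.4%, 28.2% and 14.5%. Cxcr5 held 19.3%, 53.01% and 51.1%, and Cxcr4 34.9%, 17.3% and 16.2%. Cxcr3 reached 14.7% in tumour 3, from 0% and 0.495% in tumours 1 and 2, and Ccr6 reached 3.42%, from 0.0674% and 0.820%. Ccr9 stayed at 0.0836% to 0.271%.

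**Figure D2:**
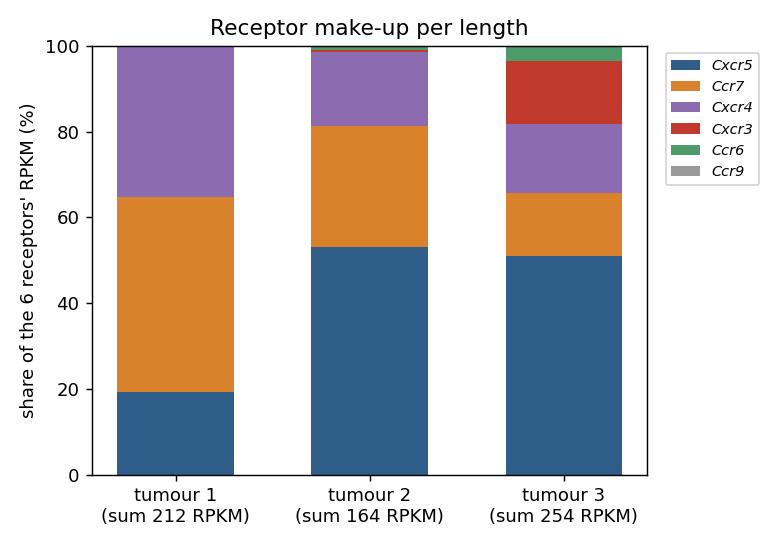
Share of the summed RPKM of the 6 receptors held by each receptor (percent, stacked) in tumours 1, 2 and 3, with the sum under each bar. Ccr7 and Cxcr4 fill most of the bar of tumour 1, Cxcr5 holds 53.01% and 51.1% in tumours 2 and 3, Cxcr3 is visible in tumour 3, and Ccr9 is too thin to see.

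Cxcr4, Ccr7, Cxcr5, Ccr9 and Ccr6 each varied more between tumours than the median gene. The SD of log2 CPM (prior count 2) over the tumours had a median of 0.93 over the 6 receptors, against 0.44 over the 12445 genes whose mean was 1 CPM or more. Cxcr4 (0.69), Ccr7 (0.72), Cxcr5 (0.85) and Ccr9 (1.014) were exceeded or equalled by 29.0%, 27.5%, 22.9% and 19.0% of those genes. The SD was 2.74 for Ccr6, reached by 4.50% of genes, and 4.55 for Cxcr3. On this log2 scale with its prior count, a range of at least 4-fold (a difference of 2) between tumours was found for 2 of the 6 receptors, Cxcr3 and Ccr6, and for 18.3% of all 12445 genes. Ccr9 lay just under 4-fold at a log2 range of 1.97, although its CPM without the prior count were 4.18-fold apart, and Cxcr5 (1.67), Ccr7 (1.38) and Cxcr4 (1.37) lay further below. All 6 had a range of at least 2-fold, as had 41.3% of genes. Ccr6 was at least 4-fold higher in tumour 3 than in each other tumour, as were 3.92% of genes, and at least 4-fold lower in tumour 1, as were 5.66%. Cxcr3 met both rules too, but it entered these genes through tumour 3 alone, so nothing is read from its place among them. This holds also for its part in the median of 0.93 and in the counts of receptors by range.

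**Figure D3:**
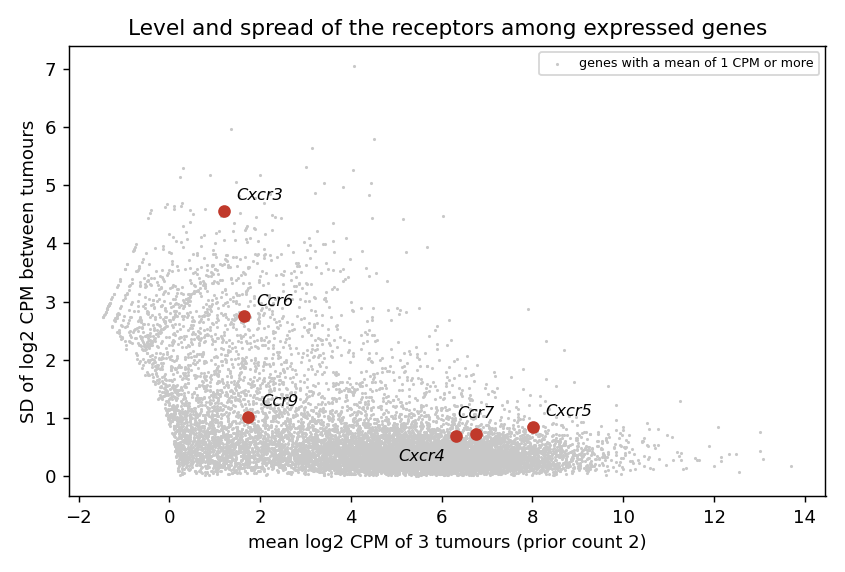
Mean log2 CPM (x axis) and SD of log2 CPM between the 3 tumours (y axis) of 12445 genes with means of 1 CPM or more (grey) and of the 6 receptors (red). Cxcr3 at an SD of 4.55 and Ccr6 at 2.74 have the widest spread of the 6 (Cxcr3 is among the grey genes through tumour 3 alone), and the abundant receptors lie between 0.69 and 0.85.

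The receptors fell into opposite orders. Cxcr3, Cxcr5 and Ccr6 were lowest in tumour 1 and highest in tumour 3 (3 of 6, against 21.8% of the same 12445 genes). Cxcr3 entered these genes through tumour 3 alone, which fixed its highest tumour, so nothing is read from its part in this count. Cxcr4 and Ccr9 were lowest in tumour 2 and highest in tumour 1 (2 of 6, against 15.4%), and Ccr7 was lowest in tumour 3 and highest in tumour 1 (1 of 6, against 18.2%). None was highest in tumour 2, where 31.1% of genes were, and 35.3% were highest in tumour 3. With 3 libraries these orders describe the libraries only.

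Gene patterns were set beside each receptor by the Euclidean distance of log2 CPM, centred on each gene's mean, over the 3 tumours, among 8374 or 8375 genes of at least 10 CPM on average. The nearest gene to Cxcr3 was Cd3e, a subunit of the T cell receptor complex, at a distance of 0.13, followed by Rora (0.59) and Prf1 (0.64), which encodes the cytotoxic protein perforin. Cd3e was also the only candidate within 0.5 of Cxcr3. For Ccr6, 6 genes lay within 0.5, led by Smpdl3b (0.15), Impdh1 (0.25) and Tes (0.26). The named neighbours of Cxcr3 and of Ccr6 reached an average of 10 CPM through tumour 3 alone. That limit thus partly fixed their likeness to these receptors, and nothing is read from it. More genes lay within 0.5 of the milder patterns of Cxcr4, Ccr7, Cxcr5 and Ccr9. They were 565 genes (6.75% of candidates) for Cxcr4 (nearest Ap4s1, Mpp6 and Ezh2) and 599 (7.15%) for Ccr7 (Rnf141, Ppargc1b and Stmn1). For Cxcr5 they were 281 (3.36%, nearest Ypel2, Pygb and Rundc1), and for Ccr9 91 (1.09%, nearest Sntb2, Chst3 and Shisa5).

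Genes of cells that the sort should remove moved with Cxcr3. The summed level of 12 T cell markers was 12.5, 46.1 and 975.2 CPM in tumours 1, 2 and 3. Of the 12, 11 were highest in tumour 3, as were 35.3% of genes with a mean of 1 CPM or more. Trbc1 had no such mean, and Cd3d, Cd3e, Cd247 and Cd28 had one through tumour 3 alone. Nothing is read from the part of these genes in this count. Cd3e itself had 0, 23 and 1023 counts. Since Cd3e was picked for its likeness to Cxcr3, the whole list is set beside the receptor. Cxcr3 had 0.0306 times the summed T cell marker counts in tumour 2 (95% counting interval 0.0193 to 0.0462) and 0.0661 times in tumour 3 (0.0622 to 0.0702). The same ratio in tumour 1 was 0, with an upper limit of 0.0197. Cd8a was at 0.663, 4.54 and 238 CPM. Tbx21, which encodes T-bet, a factor that drives Cxcr3 in T and B cells, was at 0.133, 2.08 and 70.8 CPM. In tumour 1, Cd3e was the only one of the 12 markers at 0. The part of T cell RNA in the Cxcr3 level of tumour 3 was not tested.

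For Ccr6, also highest in tumour 3, the ratio to the summed T cell markers was 0.0265, 0.0678 and 0.0207 in tumours 1, 2 and 3. For Cxcr5 it was 10.9, 6.30 and 0.444. Ccr7 and Cxcr4, which T cells share with B cells, were highest in tumour 1, where the T cell markers summed to 12.5 CPM. In tumours 1, 2 and 3 the ratio was 15.2, 1.99 and 0.0748 for Ccr7, and 10.7, 1.12 and 0.0762 for Cxcr4. NK cell markers summed to 1.86, 2.45 and 48.3 CPM, of which Prf1 gave 39.96 CPM in tumour 3 while Ncr1 had no count in any tumour. Dendritic cell markers summed to 4.31, 7.85 and 48.1 CPM, of which Itgax (CD11c) gave 42.8 CPM in tumour 3 and Clec9a had 0, 0 and 1 counts. Neutrophil markers summed to 0.199, 16.9 and 42.3 CPM, and macrophage and monocyte markers to 35.8, 403 and 179 CPM. For Ccr9, which plasmacytoid dendritic cells express, the defining marker Siglech had 1, 5 and 0 counts, and the list summed to 543, 367 and 335 CPM through Tcf4, which B cells also express. Plasma cell markers, of a cell type that uses Cxcr4, summed to 98.9, 92.1 and 133 CPM, of which Xbp1 gave 90.0, 73.3 and 113 CPM. Sdc1 was at 0.199, 0.429 and 0.507 CPM. The part of these cells in the receptor levels was not tested.

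**Figure D4:**
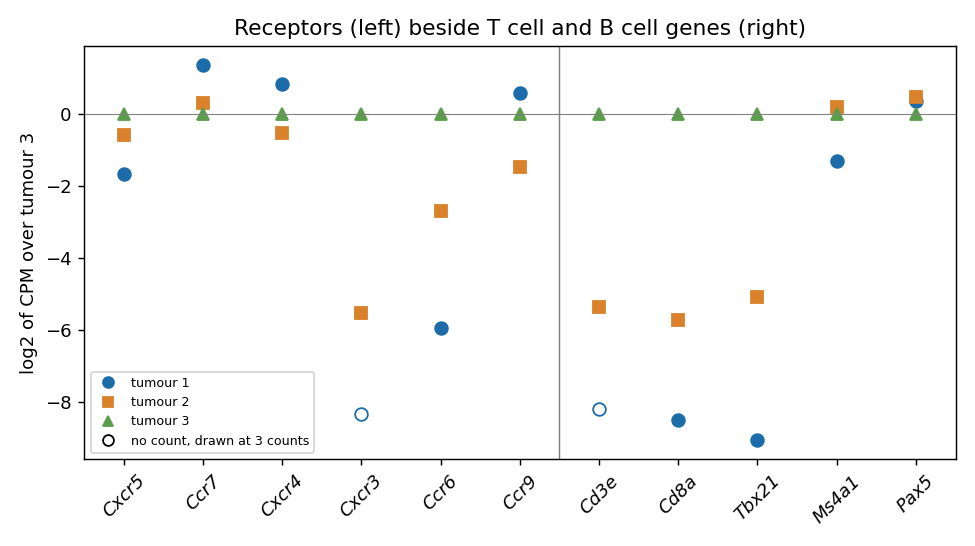
Log2 of CPM relative to tumour 3 for the 6 receptors (left of the line) and for other genes (right). These are the T cell markers Cd3e and Cd8a, Tbx21, which acts in T and B cells, and the B cell genes Ms4a1 and Pax5. Each symbol is a tumour, and open circles are counts of 0 drawn at 3 counts. Cxcr3 lies about as far below 0 in tumours 1 and 2 as Cd3e, Cd8a and Tbx21, of which Cd3e was picked for its likeness to Cxcr3. Ccr6 follows at a smaller distance, and Ccr7 and Cxcr4 are above 0 in tumour 1. Other T cell markers are not drawn. Of the 12, 11 were highest in tumour 3, as were 35.3% of genes with a mean of 1 CPM or more. Cd3d, Cd3e, Cd247 and Cd28 had such a mean through tumour 3 alone. Trac was among the 11 with a smaller distance (5.77, 12.2 and 145 CPM). Cd4 was not highest in tumour 3 (0.597, 5.82 and 0.902 CPM).

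Of the 17 other chemokine receptors reported, 14 had a count, as had 25463 of all 37646 genes. Of these 14, 2 had at least 10 CPM in every tumour, against 30.3% of genes with a count. The median of the mean levels of the 17 was 0.508 CPM, against 54.3 CPM for the 6 homing receptors. The latter lies between the means of Cxcr4 and Cxcr3, and Cxcr3 had a mean of 0.688 CPM without tumour 3. These medians are of CPM, which do not account for exon length. The most abundant of the 17 were atypical receptors, which bind chemokines without G protein signalling. Ackr3, which removes CXCL12 and so shares the ligand of Cxcr4, was at 127, 103 and 154 CPM in tumours 1, 2 and 3 (128 ± 25.6 CPM). Per length it was at 0.513 times the level of Cxcr4 in tumour 1, 1.08 times in tumour 2 and 1.12 times in tumour 3. Ackr2, a scavenger of inflammatory CC chemokines, was at 103, 51.1 and 51.0 CPM. Next per length came Ccrl2, another atypical receptor (7.75 RPKM on average), which was highest in tumour 1 at 42.7 CPM, against 10.9 and 6.88 CPM.

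Of those 17 genes, 7 had a mean of at least 1 CPM, as had 12445 of all 37646 genes. Tumour 3 was at least 4-fold above both other tumours for 2 of these 7, Ccr2 and Ccr3, against 3.92% of all genes with such a mean. Ccr3 had such a mean through tumour 3 alone, so nothing is read from its part in this count. Ccr2 and Ccr3 are named here after their values were seen. Ccr2, the monocyte and effector T cell receptor, was at 2.32, 6.13 and 59.4 CPM, and Ccr3, the eosinophil receptor, at 0, 0.184 and 26.8 CPM. They lie side by side on chromosome 9 (124021972 to 124113557), starting 238 and 318 kb beyond the end of Ccr9. Of the chemokine receptor genes between them and Ccr9 that had a count, Ccr1 was also highest in tumour 3, at 4.04, 2.76 and 6.71 CPM, whereas Cxcr6 (1.59, 2.51 and 0.902 CPM), Xcr1 (1.06, 0.919 and 0.564 CPM) and Ccr9 itself were not. The T cell, NK cell, dendritic cell, neutrophil and plasma cell markers given above were also highest in tumour 3 in sum. The macrophage and monocyte markers were highest in tumour 2 in sum, where Cd68 gave 325 of the 403 CPM. The part of any of these cells in the levels of Ccr2 and Ccr3 was not tested.

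**Figure D5:**
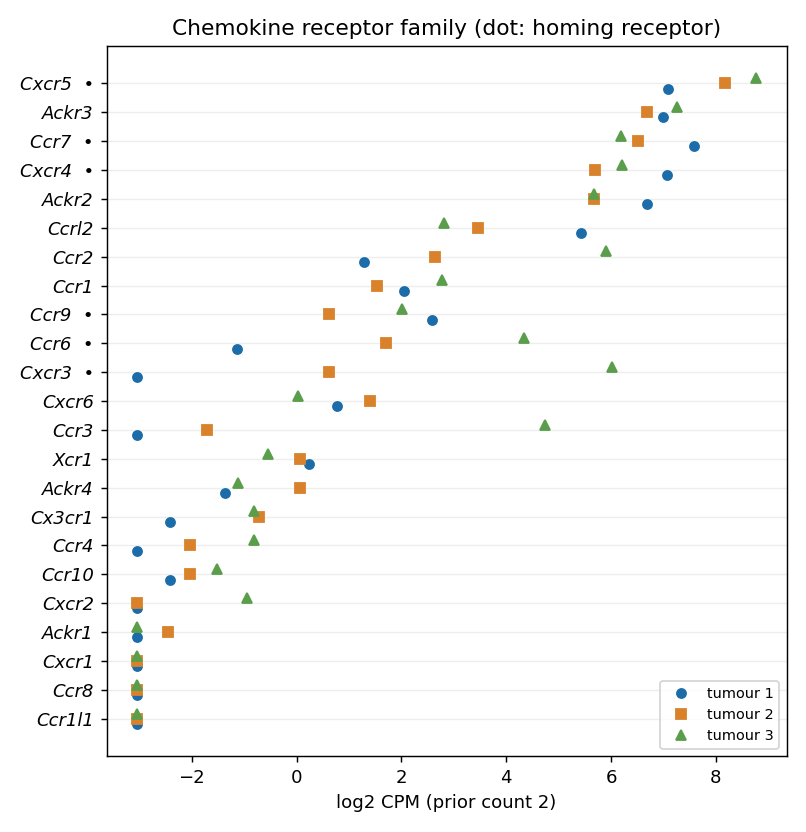
Log2 CPM (prior count 2) of 23 chemokine receptors in tumours 1, 2 and 3, ordered by mean, with a dot after the name of each homing receptor. Cxcr5, Ackr3, Ccr7, Cxcr4 and Ackr2 are high in all tumours, and Cxcr3, Ccr3, Ccr2 and Ccr6 are spread widely with tumour 3 on the right.

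Of 11 ligand genes looked for, 6 were analysed and none of these reached 10 CPM in every tumour, against 30.3% of genes with a count. Cxcl10, an interferon-induced ligand of Cxcr3, was the most abundant at 9.21, 16.7 and 15.2 CPM. Cxcl9 was at 0.862, 8.89 and 0.958 CPM, highest in tumour 2, and Cxcl11 had 1, 0 and 2 counts. Ccl25, the ligand of Ccr9, was at 3.18, 3.62 and 4.06 CPM. Cxcl13, the follicular ligand of Cxcr5, had 0, 0 and 30 counts, and Cxcl12, the stromal ligand of Cxcr4, had 1, 0 and 0 counts. Ccl19, the Ccl21 genes and Ccl20, the ligands of Ccr7 and Ccr6, were not analysed here.

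Most of the signalling genes below the receptors were expressed in every tumour. Of 21 signalling genes, 18 had at least 10 CPM in every tumour, against 30.3% of genes with a count. The median of their means was 208 CPM and their median SD of log2 CPM was 0.31. The highest mean CPM were those of Rac2 (1616 ± 135 CPM), a GTPase of leukocyte migration, Coro1a (998 ± 222 CPM), an actin regulator, and Dock2 (781 ± 315 CPM), which activates Rac downstream of chemokine receptors. A range of at least 4-fold was found for 2 of the 21, against 18.3% of genes, the catalytic and regulatory subunits of the PI3 kinase that Gβγ activates. Pik3cg was at 8.75, 56.2 and 96.8 CPM and Pik3r5 at 5.97, 24.7 and 65.0 CPM, both lowest in tumour 1 and highest in tumour 3, an order that 21.8% of genes had. These 2 genes were named after their values were seen.

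Of 13 genes that switch off or degrade the receptors, 7 had at least 10 CPM in every tumour (30.3% of genes with a count) and 6 a range of at least 4-fold (18.3% of genes with a mean of 1 CPM or more). Grk2 (548 ± 103 CPM) and Grk6 (395 ± 178 CPM), kinases that phosphorylate active receptors, and Rgs19 (161 ± 49.4 CPM), which speeds Gα inactivation, were the most abundant. All 6 of the wide ranges, among them Grk3 (0.464, 37.9 and 19.7 CPM) and Rgs1 (3.51, 15.5 and 31.7 CPM), were lowest in tumour 1, as were 61% of all genes with such a range. Another of the 6, Rgs16 (0.331, 0.797 and 4.23 CPM), had a mean of 1 CPM or more through tumour 3 alone. Nothing is read from its part in these counts. Grk3, Rgs1 and Rgs16 were named after their values were seen.

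Of 12 transcription factors that act on receptor genes or homing, 10 had at least 10 CPM in every tumour, against 30.3% of genes with a count. Klf2 (757 ± 96.6 CPM), a factor of lymphocyte trafficking, and Pou2af1 (616 ± 48.1 CPM) and Pou2f2 (568 ± 164 CPM), the coactivator and octamer factor needed for Cxcr5 expression, were the most abundant. Pou2f2 was at 391, 597 and 715 CPM in tumours 1, 2 and 3. A range of at least 4-fold (18.3% of genes) was found for 2 of the 12, Tbx21, given above, and Bcl6, the germinal centre repressor, at 0.464, 2.64 and 14.5 CPM. Of 7 other homing genes, 6 had at least 10 CPM in every tumour and all 7 were highest in tumour 3, as were 35.3% of genes with a mean of 1 CPM or more, 10 of the 12 factors and 13 of the 21 signalling genes. Itgal differed little, at 597 CPM in tumour 1 and 611 CPM in tumour 3. The highest mean CPM were those of the integrin subunits Itgal (591 ± 22.5 CPM), Itga4 (304 ± 133 CPM) and Itgb7 (249 ± 110.5 CPM). S1pr1, the receptor for exit from lymphoid organs, was at 79.0, 247 and 279.5 CPM.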

How the data were processed

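PolyA-enriched RNA of 3 libraries was read in single ends of 50 nt. The authors deposited raw gene counts. Per the submitters' processing notes they used STAR 2.5.2b, featureCounts 1.6.0 and the mm10 build, and the strand setting and gene annotation were not given in the sources used here. Libraries were numbered in accession order as names only. The receptors and gene lists were chosen with earlier results of these data known. All receptors were named, with the 3 nearest genes of each, every ligand and the 3 most abundant genes of the other lists; exceptions are stated. Some genes of the lists are not reported here.

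CPM used library totals and TMM factors (0.969, 0.990 and 1.04) from edgeR 4.0.16 (R 4.3.3) after filterByExpr, which kept 11273 genes, and log2 CPM a prior count of 2. With 1 group, no contrast was fitted and no p-value is given. RPKM used exon lengths of GENCODE M21, to which 37536 of 37646 identifiers matched. Poisson and conditional binomial intervals (95%) were exact. A floor of 3 counts equals 0.199, 0.184 and 0.169 CPM in tumours 1 to 3. DESeq2 1.42.0 gave alternative size factors. Values were computed in Python 3.11.15 with SciPy 1.17.1 and pandas 2.3.3, and drawn with matplotlib 3.10.9.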

Additional observations from a re-analysis of the deposited data

How the results depend on the processing

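With DESeq2 size factors, total counts or no filter before TMM, the mean CPM of each receptor moved by -1.01% to 4.19%, and 3 receptors stayed at 10 CPM or more in every tumour. A limit of 2-fold in place of 4-fold was passed by 6 receptors, 41.3% of genes doing so, with Cxcr3 among these genes through tumour 3 alone. Ccr9 sat at the 4-fold limit: the count was 3 with a prior count of 0.5 or with no filter before TMM. Leaving out each tumour in turn gave an SD of log2 CPM of 0.37 to 0.98 for Cxcr4, 0.40 to 1.21 for Cxcr5 and 0.24 to 0.95 for Ccr7, each lowest without tumour 1, 0.39 to 1.40 for Ccr9, lowest without tumour 2, and 2.54 to 6.41 for Cxcr3, lowest without tumour 3, and 1.87 to 3.90 for Ccr6. Mean CPM ranged from 0.688 to 33.4 for Cxcr3 and from 1.69 to 11.8 for Ccr6, both lowest without tumour 3. In the order of mean RPKM, 2 to 6 of the receptors kept their place, with 2 without tumour 3. Exon lengths not shared with other genes, an alternative chosen after seeing the data, left all 6 in place, as did CPM with no length. Each tumour has 1 library, so technical and biological spread cannot be told apart. No paired analysis was possible because the labels give 1 group and no replicate numbers.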
